A study of Homo sapiens with 4 samples.

Results

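Metallothioneins and the genes of the zinc response around them were examined in cells treated with HJ-23. The cells were HCT116, a human line established from a colorectal carcinoma. The set holds 8 genes of the 20263 in each count table, matched by symbol: the metallothioneins MT2A, MT1E, MT1F, MT1X and MT1G, the zinc sensor MTF1, the zinc exporter SLC30A1 and the zinc importer SLC39A10. RNA was sequenced after 24 hours with 30 µM HJ-23, which the submitters call a piperine derivative, or with 0.1% DMSO, the solvent control, with 2 libraries in each group. All cells carried the genotype label WT, the labels do not give the solvent content of the HJ-23 cultures, and the treatment field of the treated samples reads HJ-25 where their titles read HJ-23. The count tables carry the letters C for HJ-23 and D for DMSO, and the direction of every difference rests on the titles. The labels name no separate cultures, so a p-value here measures only how far these libraries spread, and that spread may be technical. In RNA from whole cultures, fewer expressing cells and less RNA per cell cannot be told apart.

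Metallothioneins are small proteins rich in cysteine that hold zinc and copper ions and release them to other proteins. When free zinc rises, the zinc finger transcription factor MTF1 binds metal response elements in promoters and switches on the metallothionein genes and SLC30A1, which pumps zinc out of the cell. In the mouse MTF1 also lowers SLC39A10, which brings zinc in. Cadmium, copper overload and zinc ionophores raise metallothionein mRNA strongly in cultured epithelial cells, which makes these genes a common readout of metal entering the cytosol.

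The 5 metallothionein members lie in a cluster on chromosome 16 and are close in sequence, which bears on how their reads could be told apart. The first 90 coding bases of the principal transcript of each gene in GENCODE 29 are shown 5′ to 3′, with the cysteine codons (TGC and TGT, in frame) in capitals.
MT2A: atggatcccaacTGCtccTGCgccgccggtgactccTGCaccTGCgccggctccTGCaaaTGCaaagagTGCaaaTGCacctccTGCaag
MT1E: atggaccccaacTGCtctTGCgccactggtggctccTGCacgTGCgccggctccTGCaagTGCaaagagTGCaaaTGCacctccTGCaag
MT1F: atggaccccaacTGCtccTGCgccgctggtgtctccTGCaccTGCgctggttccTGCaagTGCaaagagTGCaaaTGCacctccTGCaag
MT1X: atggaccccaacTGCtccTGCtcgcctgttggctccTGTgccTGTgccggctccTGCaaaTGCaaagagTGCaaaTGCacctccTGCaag
MT1G: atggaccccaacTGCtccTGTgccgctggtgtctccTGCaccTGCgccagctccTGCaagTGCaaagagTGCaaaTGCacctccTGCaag
Each of the 5 coding sequences had 61 codons, of which 20 were cysteine codons, and 9 of those fell in the stretch shown. Identity between pairs of coding sequences ran from 88.5% (MT1F and MT1X) to 95.1% (MT1G and MT2A). Of the 50-base windows of each principal transcript, 2.17% in MT2A, 0.458% in MT1E, 3.59% in MT1F, 14.7% in MT1X and 19.9% in MT1G occurred exactly in a transcript of another gene of the count tables. No 100-base window of these transcripts did, but 19.1% of those of MT1X lie in the overlapping gene AC026461.1, which is not analysed here. Over all annotated genes 45.1% of the 50-base windows of MT1X were shared (181 of 401), 117 of them with AC026461.1. This share was 20.2% in MT1G, 4.88% in MT2A and 3.59% in MT1F. In MT1E it was 5.34%, each window shared with MT1JP, which is not analysed here either. For MTF1 the 50-base share was 0.631% with genes of the count tables, and for SLC30A1 and SLC39A10 it was 0. The sources used here do not give the read length, so the division of counts among the metallothioneins is uncertain.

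RefSeq promoters (build GRCh38.p14, 300 bases around the transcription start) were matched for MT2A, MT1X, MTF1, SLC30A1 and SLC39A10. They were searched on both strands for the core of the metal response element, written as TGCACNC and TGCGCNC; no matches overlapped one another. The promoters of MT2A and MT1X, both expressed, MT1H, listed at 0 in these cells, and SLC30A1 are shown on the strand of the gene with each match in capitals.
MT2A promoter, chr16:56608334-56608633, + strand: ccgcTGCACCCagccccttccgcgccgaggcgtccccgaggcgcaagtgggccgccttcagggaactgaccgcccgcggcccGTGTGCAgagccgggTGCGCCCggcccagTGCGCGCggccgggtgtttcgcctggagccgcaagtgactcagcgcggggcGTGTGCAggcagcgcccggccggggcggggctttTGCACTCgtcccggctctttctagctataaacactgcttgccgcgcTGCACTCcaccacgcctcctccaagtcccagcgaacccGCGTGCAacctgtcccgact
MT1X promoter, chr16:56682220-56682519, + strand: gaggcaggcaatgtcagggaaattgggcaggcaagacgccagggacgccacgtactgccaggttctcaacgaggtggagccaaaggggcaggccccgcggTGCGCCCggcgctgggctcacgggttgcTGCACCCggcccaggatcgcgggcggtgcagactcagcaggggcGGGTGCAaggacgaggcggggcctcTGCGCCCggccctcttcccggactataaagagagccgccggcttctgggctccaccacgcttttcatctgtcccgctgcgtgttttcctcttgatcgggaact
MT1H promoter, chr16:56669564-56669863, + strand: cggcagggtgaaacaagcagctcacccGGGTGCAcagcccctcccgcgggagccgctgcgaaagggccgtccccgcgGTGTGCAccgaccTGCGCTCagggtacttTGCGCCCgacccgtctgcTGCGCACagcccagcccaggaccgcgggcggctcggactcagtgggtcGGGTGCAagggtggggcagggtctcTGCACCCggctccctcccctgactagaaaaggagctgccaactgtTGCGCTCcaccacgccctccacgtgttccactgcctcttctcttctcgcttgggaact
SLC30A1 promoter, chr1:211579112-211579411, - strand: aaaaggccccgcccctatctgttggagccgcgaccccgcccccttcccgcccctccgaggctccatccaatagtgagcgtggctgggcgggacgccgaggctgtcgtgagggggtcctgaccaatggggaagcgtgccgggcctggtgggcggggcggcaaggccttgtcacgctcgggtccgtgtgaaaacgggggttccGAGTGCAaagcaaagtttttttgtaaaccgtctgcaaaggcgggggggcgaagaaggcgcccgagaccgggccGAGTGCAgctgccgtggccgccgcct
The core matched 8 times in the MT2A promoter, 8 times in MT1H, 4 times in MT1X and 2 times in SLC30A1. Of 35116 RefSeq promoters, 29.6% held at least 1 match, 8.60% at least 2, 0.601% at least 4 and 0.0199% at least 8. The promoters of MT1B and MT4, also listed at 0 in these cells and not shown, had 3 matches each. At least 3 were held by 2.30% of RefSeq promoters. The MTF1 promoter had 0 matches, and of the 2 listed SLC39A10 promoters one had 0 and the other 1. A match describes these letters and is not a measured binding site.

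The libraries held between 29769568 and 34831207 counts, and 14062 genes passed the filter on low counts. The colon epithelial markers KRT8, KRT18, KRT19, EPCAM, CDH1 and CDX2 were present in every library, at a summed level of 4049 and 5513 CPM in HJ-23 and 4522 and 4094 CPM in DMSO, where CPM is the count scaled to a library of 1000000 counts. VIL1 had at most 4 counts in any library. Of the leukocyte markers, PTPRC and CD3E were at 0 in every library and LYZ had at most 9 counts, while CD68 was at 41.3 and 51.0 CPM in HJ-23 and 40.4 and 34.8 CPM in DMSO. Of the fibroblast markers, COL1A2 and DCN were at 0 in every library and COL1A1 was at 55.1 and 60.0 CPM in HJ-23 and 63.3 and 61.1 CPM in DMSO. The endothelial markers summed to 0.762 and 1.31 CPM in HJ-23 and 1.09 and 0.718 CPM in DMSO.

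No gene of the set passed the test of HJ-23-treated against DMSO-treated cells. Of the 8 members 7 passed the filter, and 0 of these 7 passed an adjusted p of 0.05 in edgeR's quasi-likelihood test, in which 0.0853% of all genes tested passed (0.0569% higher and 0.0284% lower in HJ-23). The smallest adjusted p among the members was 0.513 (SLC39A10, edgeR). At an unadjusted p below 0.05 edgeR had 0 of the 7, against 12.0% of all genes tested (6.77% higher and 5.25% lower). DESeq2 called 0 of the 7, against 2.31% of the genes it adjusted (1.19% higher and 1.11% lower). The members' log2 fold changes, HJ-23 over DMSO, ran from -0.48 to 0.26 with a median of -0.050, against a median of 0.0086 over all genes tested. The upper end of the 95% interval stayed below 1, a 2-fold increase, for each of the 7 genes, the highest being 0.79 for MT1F. Only SLC39A10 had a lower end below -1, at -1.17.

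**Figure D1:**
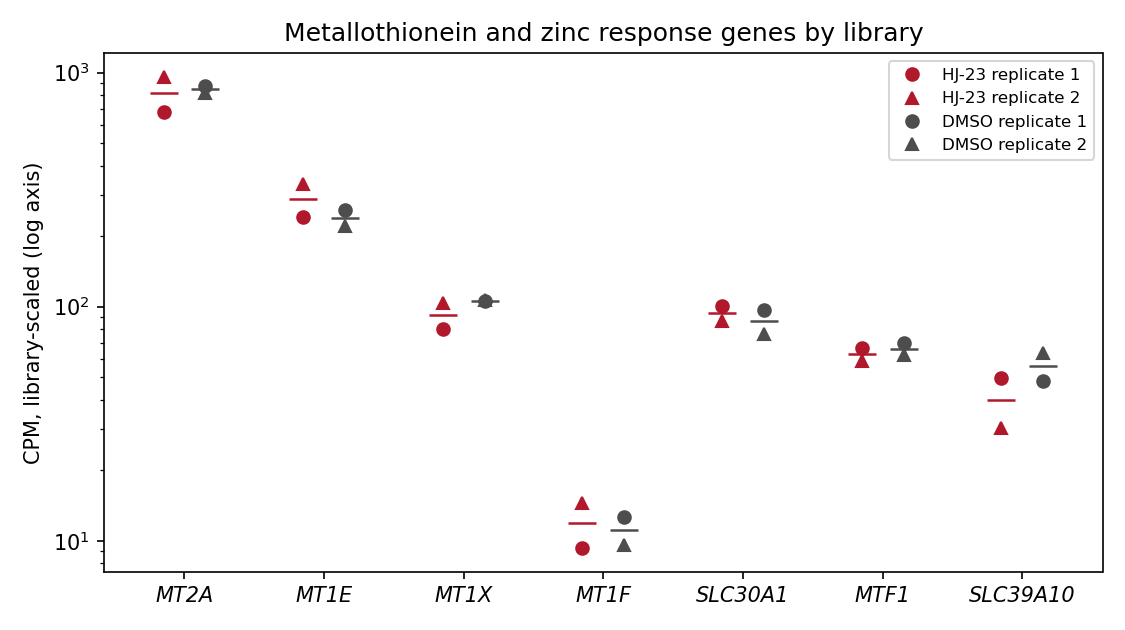
Library-scaled CPM (log axis) of the 7 expressed genes in each library; red marks are HJ-23 replicates 1 (circle) and 2 (triangle), grey marks DMSO, and short lines the group means. MT2A runs from 679 to 962 CPM, and the HJ-23 and DMSO points overlap for every gene but MT1X, where 46.0% of all genes tested had no overlap.

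MT2A (ENSG00000125148), the most widely expressed human metallothionein, was the most abundant member and ranked 120 by mean CPM among the genes listed. It was at 679 and 962 CPM in HJ-23 replicates 1 and 2, and at 876 and 822 CPM in DMSO replicates 1 and 2. The HJ-23 libraries lay on either side of both DMSO libraries, so the groups overlapped. These levels rest on 24070 and 33106 counts in HJ-23 and 27212 and 24060 counts in DMSO, so counting error is small beside the gap between the HJ-23 libraries. Its log2 fold change was -0.050 (SE 0.19, 95% interval -0.53 to 0.43, adjusted p = 0.934, edgeR). The value was 0.16 with HJ-23 replicate 1 left out and -0.35 with HJ-23 replicate 2 left out.

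MT1E (ENSG00000169715), an inducible metallothionein of the same cluster, was at 242 and 334 CPM in HJ-23, and at 259 and 222 CPM in DMSO. HJ-23 replicate 2 was the highest library and HJ-23 replicate 1 lay between the DMSO libraries. The log2 fold change was 0.26 (SE 0.20, 95% interval -0.22 to 0.74, adjusted p = 0.610, edgeR), and it was -0.017 without HJ-23 replicate 2.

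MT1X (ENSG00000187193) was at 80.2 and 103.6 CPM in HJ-23, and at 105.6 and 106.4 CPM in DMSO. Both HJ-23 libraries lay below both DMSO libraries, as they did for 21.2% of all genes tested. MT1X was the only one of the 7 tested members whose groups did not overlap. Over all genes tested, 46.0% had groups without overlap, in either direction. HJ-23 replicate 2, however, was close to the DMSO libraries, and HJ-23 replicate 1 made most of the difference. The log2 fold change was -0.21 (SE 0.17, 95% interval -0.62 to 0.21, adjusted p = 0.639, edgeR), and it was -0.052 with HJ-23 replicate 1 left out and -0.43 with HJ-23 replicate 2 left out.

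MT1F (ENSG00000198417), the least abundant of the expressed metallothioneins, was at 9.28 and 14.6 CPM in HJ-23, and at 12.6 and 9.57 CPM in DMSO. The HJ-23 libraries held both the lowest and the highest value. The log2 fold change was 0.10 (SE 0.28, 95% interval -0.58 to 0.79, adjusted p = 0.898, edgeR), and it was -0.28 with HJ-23 replicate 2 left out, -0.10 with DMSO replicate 2 left out and -0.066 after correction for GC content and transcript length.

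MT1G (ENSG00000125144), which normal colon epithelium expresses, had 0 counts in both HJ-23 libraries and 0 in both DMSO libraries. A count of 0 allows up to 6 counts in each library, which is 3 fragments when each mate is counted, or 0.169 to 0.205 CPM, a limit that covers counting error only. The other metallothionein genes in the tables, MT1A, MT1B, MT1H, MT1M, MT1HL1, MT3 and MT4, were also at 0 in all 4 libraries. Of 12 metallothionein genes listed, 4 thus had counts, in HJ-23 and in DMSO alike, and no fold change can be given for the other 8.

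MTF1 (ENSG00000188786), the transcription factor that senses zinc, was at 66.3 and 58.7 CPM in HJ-23, and at 70.2 and 62.0 CPM in DMSO. The groups overlapped, and the log2 fold change was -0.081 (SE 0.16, 95% interval -0.46 to 0.30, adjusted p = 0.857, edgeR). It was 0.011 without DMSO replicate 1. Zinc regulates MTF1 largely through the protein's location and DNA binding, so its mRNA level is no measure of its activity.

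SLC30A1 (ENSG00000170385), the plasma membrane zinc exporter ZnT1 and the other classical MTF1 target, was at 101 and 86.9 CPM in HJ-23, and at 97.1 and 76.5 CPM in DMSO. In both groups replicate 1 was the higher library, and the groups overlapped. The log2 fold change was 0.11 (SE 0.18, 95% interval -0.32 to 0.54, adjusted p = 0.816, edgeR). It was -0.017 with HJ-23 replicate 1 left out and -0.071 with DMSO replicate 2 left out.

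SLC39A10 (ENSG00000196950), the zinc importer ZIP10, was at 49.6 and 30.2 CPM in HJ-23, and at 48.1 and 63.6 CPM in DMSO. HJ-23 replicate 1 and DMSO replicate 1 were nearly alike, and HJ-23 replicate 2 was the lowest library. The log2 fold change was -0.48 (SE 0.28, 95% interval -1.17 to 0.20, adjusted p = 0.513, edgeR). It was -0.20 when HJ-23 replicate 2 was left out and -0.90 when HJ-23 replicate 1 was, and it was -0.29 when DMSO replicate 2 was left out and -0.67 when DMSO replicate 1 was, so its size rests on replicate 2 of both groups.

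**Figure D2:**
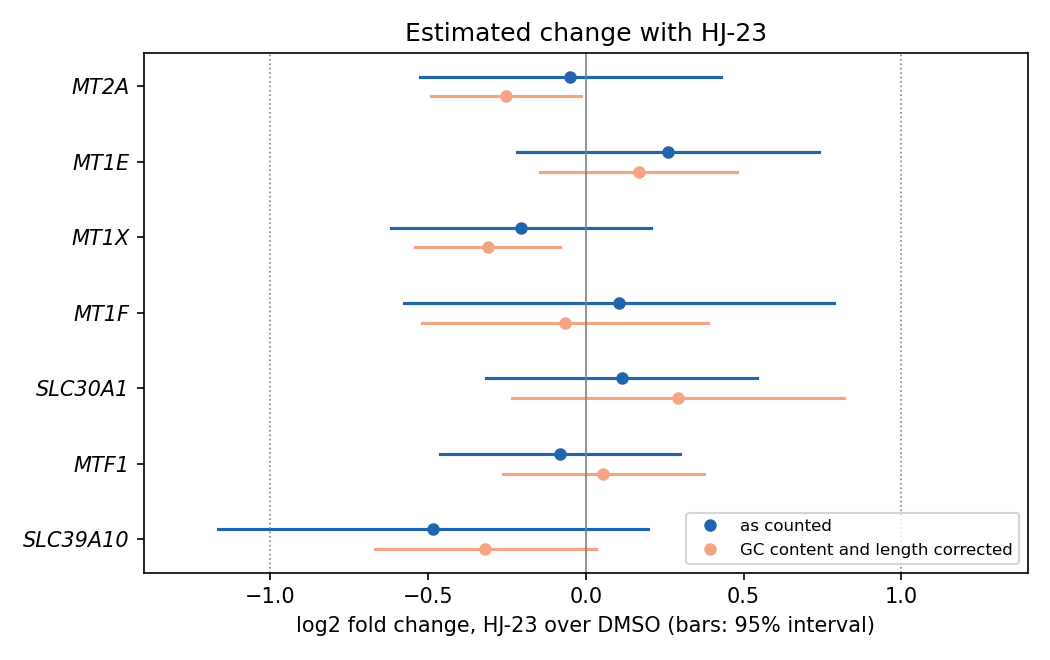
Log2 fold change, HJ-23 over DMSO, with 95% intervals from edgeR for the 7 tested genes, from counts as deposited (blue) and after removal of each library's GC content and length trend (orange); dotted lines mark a 2-fold change. As counted, every interval spans 0; after correction those of MT1X and MT2A lie below 0.

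Compared per length, with the longest coding transcript of each gene, MT2A stood at 1044 ± 255 CPM per kb in HJ-23 and 1080.2 ± 48.1 CPM per kb in DMSO (mean ± SD, n = 2 each, as for all means here). MT1E followed at 395 ± 89.7 CPM per kb in HJ-23 and 329.6 ± 35.7 in DMSO, and MT1X at 171 ± 30.9 CPM per kb in HJ-23 and 197 ± 1.00 in DMSO. These 3 kept their order in both groups, also when the length was the union of all exons. MT1F, at 17.3 ± 5.41 CPM per kb in HJ-23 and 16.1 ± 3.09 in DMSO, did not differ beyond its spread from SLC30A1, at 17.2 ± 1.82 in HJ-23 and 15.9 ± 2.65 in DMSO. With the union of exons MT1F was at 6.31 CPM per kb in HJ-23 and 5.86 in DMSO, so its place depends on the length used. MTF1 was at 7.84 ± 0.68 CPM per kb in HJ-23 and 8.30 ± 0.73 in DMSO, and SLC39A10, at 7.35 ± 2.52 in HJ-23 and 10.3 ± 2.01 in DMSO, did not differ from it beyond its spread.

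The libraries of a group differed in the same sense for several members. MT2A, MT1E and MT1F were highest in HJ-23 replicate 2, and all 4 expressed metallothioneins were higher there than in HJ-23 replicate 1, by 0.37 (MT1X) to 0.65 (MT1F) on the log2 scale. SLC39A10, SLC30A1 and MTF1 went the other way between these libraries, with differences of -0.71, -0.22 and -0.18. Between the DMSO libraries, MT1E and MT1F were lower in replicate 2 than in replicate 1, by differences of -0.22 and -0.39, and so were SLC30A1 (-0.34), MTF1 (-0.18) and, by less, MT2A (-0.091). MT1X differed by 0.010 and SLC39A10 by 0.40.

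**Figure D3:**
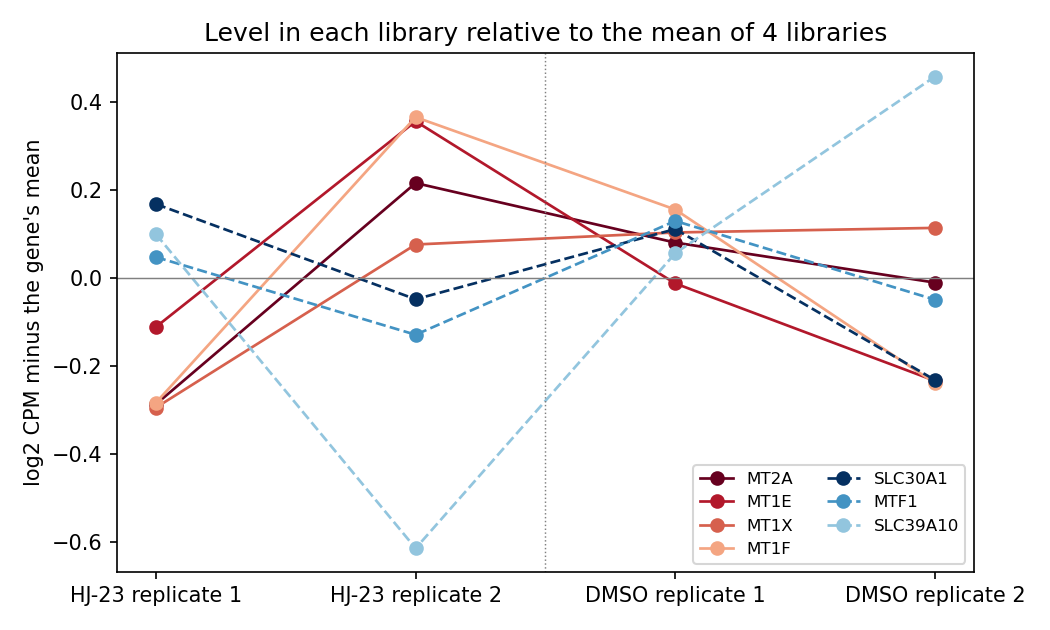
Log2 CPM of each gene minus its own mean over the 4 libraries, HJ-23 left of the dotted line and DMSO right of it; solid lines are metallothioneins, dashed lines MTF1 and the zinc transporters. The 4 metallothioneins lie higher in HJ-23 replicate 2 than in HJ-23 replicate 1, by 0.37 to 0.65, where SLC39A10 lies lower (-0.71).

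Transcript length and base composition moved with the same library difference. Metallothionein transcripts are among the shortest tested: MT1X at 538 bases, MT1F at 690, MT1E at 729 and MT2A at 786 lay at percentiles 0.341 to 1.94 of length among the genes tested, while MTF1, SLC30A1 and SLC39A10 exceed 5000 bases. Over the 612 tested genes with transcripts under 1000 bases, the median log2 difference of HJ-23 replicate 2 over replicate 1 was 0.28, and over the 3658 with transcripts over 5000 bases it was -0.20. Across 14047 genes, which are not independent replicates, that difference had a Spearman correlation of 0.63 with transcript GC content and -0.33 with length. The difference of DMSO replicate 2 over replicate 1 had correlations of -0.35 with GC content and 0.17 with length. The difference between the HJ-23 and DMSO means also moved with both, with correlations of 0.38 and -0.22. GC content was 63.0% for MT2A, 59.9% for MT1F, 54.3% for MT1X and 53.5% for MT1E. It was 46.7% for MTF1, 38.0% for SLC30A1 and 37.6% for SLC39A10.

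After each library's GC content and length trend was removed, the standard error of MT2A was 0.094 instead of 0.19, while that of SLC30A1 was 0.20 instead of 0.18. MT1X then had a log2 fold change of -0.31 (95% interval -0.54 to -0.081, adjusted p = 0.204, edgeR) and MT2A of -0.25 (95% interval -0.49 to -0.014, adjusted p = 0.270, edgeR), and neither passed over all genes. SLC39A10 had -0.32 (adjusted p = 0.319, edgeR), SLC30A1 0.29 (adjusted p = 0.506, edgeR) and MT1E 0.17 (adjusted p = 0.524, edgeR). MTF1 had 0.056 (adjusted p = 0.850, edgeR). In this fit 0 of the 7 passed, against 0.235% of all genes in it, and 2 had an unadjusted p below 0.05, against 17.4% of all genes in it.

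The counts of the expressed metallothioneins were also added within each library, since an exchange of reads among them leaves the sum as it is. Reads exchanged with genes outside the sum, such as AC026461.1 or MT1JP, would still change it. The sum was 1010 and 1414 CPM in HJ-23, and 1253 and 1160 CPM in DMSO, or 0.104% and 0.140% of all counts in HJ-23 and 0.125% and 0.114% in DMSO. The HJ-23 libraries again lay on either side of the DMSO libraries, and the group means were 1212 ± 286 CPM in HJ-23 and 1206 ± 65.4 CPM in DMSO, a ratio of 1.00. MT2A made up 67.2% and 68.0% of this sum in HJ-23, and 69.9% and 70.9% in DMSO. The sum was formed without the GC content and length correction. With that correction the log2 fold changes were -0.25 for MT2A, -0.31 for MT1X, -0.066 for MT1F and 0.17 for MT1E.

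Ratios between metallothioneins within a library do not depend on its scaling, but its GC content and length trend was not removed from them. For every 100 counts of MT2A there were 35.6 and 34.7 counts of MT1E in HJ-23, and 29.5 and 27.0 in DMSO. The groups did not overlap, with a mean of 35.2 ± 0.61 in HJ-23 and 28.3 ± 1.80 in DMSO, a ratio of 1.24. An exact permutation test gave p = 0.333 (two-sided), the smallest value 2 libraries against 2 can give. MT1X went the other way, at 11.8 and 10.8 counts per 100 of MT2A in HJ-23, and 12.1 and 12.9 in DMSO (exact permutation p = 0.333). MT1F overlapped, at 1.37 and 1.51 in HJ-23 and 1.44 and 1.16 in DMSO. Among all other tested genes, 33.6% had a ratio to MT2A without overlap between the groups, 26.5% with HJ-23 above DMSO, as for MT1E, and 7.08% with HJ-23 below DMSO, as for MT1X. As counted, the log2 fold changes were -0.050 for MT2A, -0.21 for MT1X and 0.26 for MT1E. With the GC content and length correction they were -0.25, -0.31 and 0.17, so MT1X lay closer to MT2A. The ratios to MT2A were formed after the values had been seen.

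**Figure D4:**
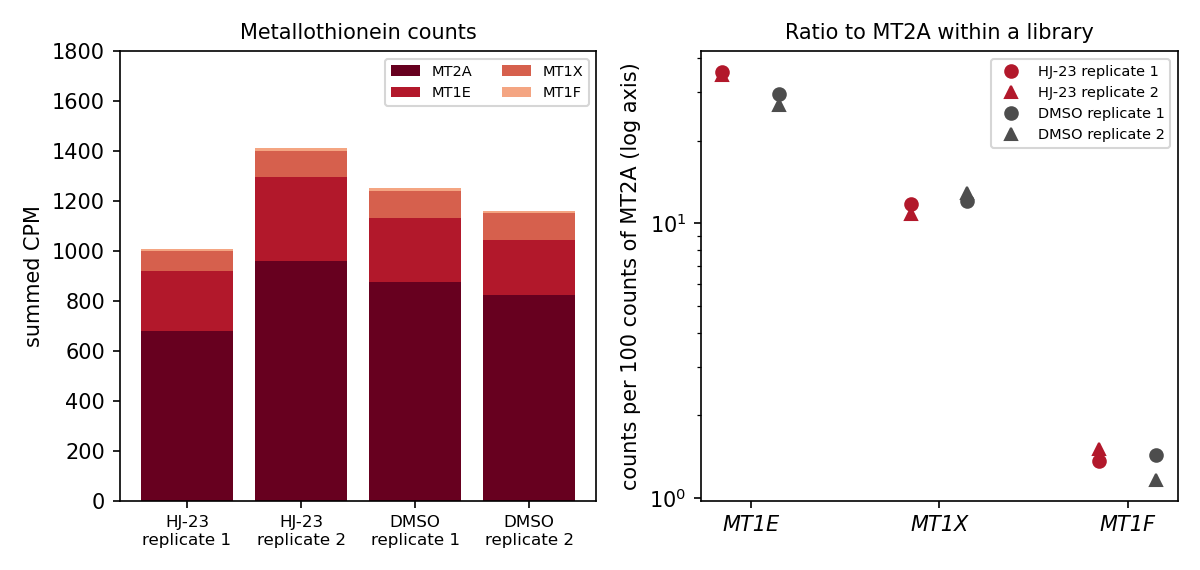
Left, CPM of the 4 expressed metallothioneins stacked in each library, HJ-23 first; right, counts of MT1E, MT1X and MT1F per 100 counts of MT2A in the same library (log axis; red HJ-23, grey DMSO). The sums of 1010 and 1414 CPM in HJ-23 straddle those in DMSO, while the MT1E ratio is 35.6 and 34.7 in HJ-23 and 29.5 and 27.0 in DMSO.

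The genes whose profile over the 4 libraries was most like that of MT2A were not other metallothioneins. By Euclidean distance between log2 CPM profiles, each centred on its own mean, the nearest of 14061 genes included SLC16A3, LMF1, HYAL2 and TMEM256, at distances of 0.034 to 0.040. MT1X ranked 560 at 0.19, MT1F 1691 at 0.28 and MT1E 2528 at 0.33. SLC30A1 ranked 7485 and SLC39A10 12335. With 4 libraries such distances describe these libraries only.

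The rest of the zinc transporter families showed no member past the threshold. Of the 10 other exporter genes 6 were tested and 0 passed in edgeR, against 0.0853% of all genes tested. At an unadjusted p below 0.05 edgeR had 1, against 12.0% of all genes tested. DESeq2 called 0, against 2.31% of the genes it adjusted. The median log2 fold change of the tested exporter genes was 0.032. The most abundant were SLC30A9, at 78.3 ± 16.0 CPM in HJ-23 and 76.6 ± 12.0 CPM in DMSO, SLC30A5, which loads zinc into the secretory pathway, at 68.7 ± 0.54 CPM in HJ-23 and 69.9 ± 4.35 CPM in DMSO, and SLC30A7, its Golgi relative, at 65.5 ± 12.0 CPM in HJ-23 and 64.0 ± 0.89 CPM in DMSO. SLC30A3 was at 38.9 ± 6.69 CPM in HJ-23 and 36.6 ± 4.54 CPM in DMSO. Their log2 fold changes ran from -0.024 to 0.086.

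SLC30A6, the Golgi transporter that pairs with SLC30A5, had the largest difference of the zinc genes. It was at 24.2 and 15.2 CPM in HJ-23, and at 9.20 and 11.3 CPM in DMSO. The groups did not overlap, and the lower HJ-23 library exceeded the higher DMSO one, as for 24.8% of all genes tested. The log2 fold change was 0.94 (SE 0.27, 95% interval 0.28 to 1.61, adjusted p = 0.311, edgeR), from 0.55 (HJ-23 replicate 1 left out) to 1.22 (HJ-23 replicate 2 left out) with 1 library fewer. With the GC content and length correction the log2 fold change was 1.09 (adjusted p = 0.081, edgeR), and with DESeq2 it was 0.93 (adjusted p = 0.090). SLC30A6 was named after its values were seen.

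Of the 13 other importer genes 11 were tested and 0 passed in edgeR, against 0.0853% of all genes tested. At an unadjusted p below 0.05 edgeR had 1, against 12.0% of all genes tested. DESeq2 called 0, against 2.31% of the genes it adjusted. The tested importer genes had a median log2 fold change of 0.17. SLC39A7, which releases zinc from the endoplasmic reticulum, was at 359 and 440.2 CPM in HJ-23, and at 372 and 337 CPM in DMSO. SLC39A6 was at 121 ± 22.6 CPM in HJ-23 and 118 ± 8.12 CPM in DMSO, and SLC39A9 at 92.9 ± 12.7 CPM in HJ-23 and 105 ± 18.7 CPM in DMSO. SLC39A14, which also carries iron and manganese, was at 99.4 and 214 CPM in HJ-23, and at 163 and 68.4 CPM in DMSO. Its libraries differed more within a group than between groups (log2 fold change 0.44, SE 0.56; edgeR adjusted p = 0.781), and its value was 1.196 with a call when DMSO replicate 1 was left out (adjusted p = 0.0213, edgeR). It was -0.25 when HJ-23 replicate 2 was left out and -0.082 when DMSO replicate 2 was.

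**Figure D5:**
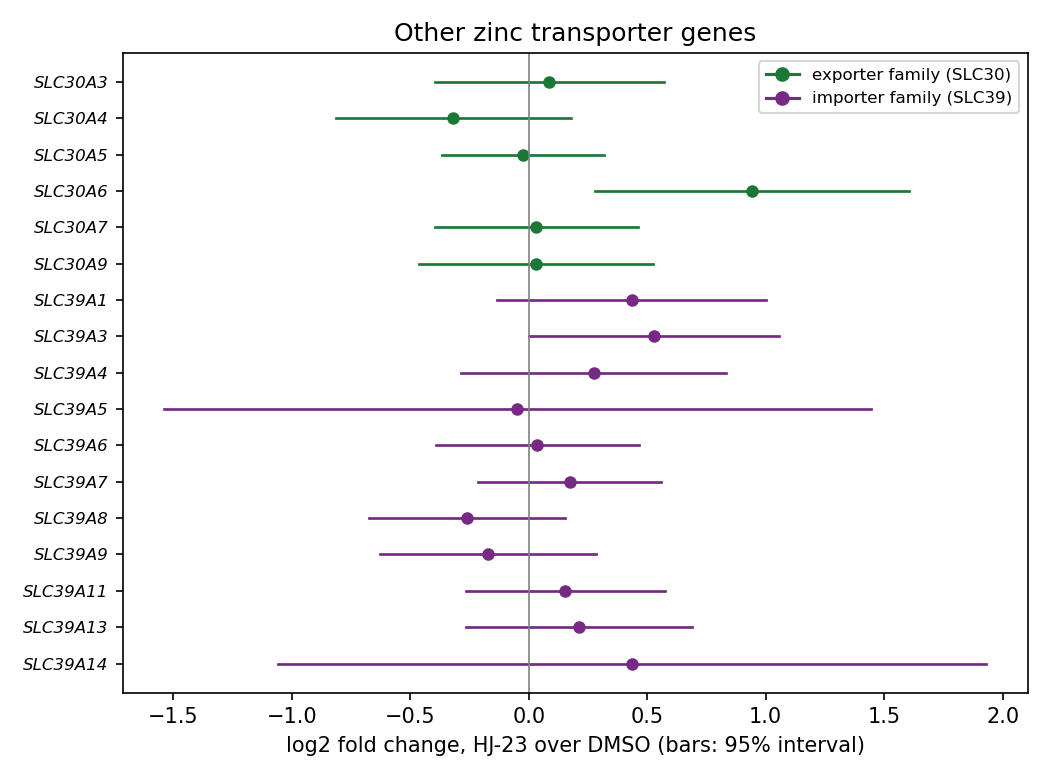
Log2 fold change, HJ-23 over DMSO, with 95% intervals from edgeR for the 17 other zinc transporter genes tested, exporters of the SLC30 family above (green) and importers of the SLC39 family below (purple). SLC30A6 stands highest at 0.94, the interval of SLC39A3, named after its values were seen, also lies just above 0, and neither gene passed after adjustment over all genes.

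Genes that toxic metals and damaged proteins raise alongside the metallothioneins leaned in both directions without passing the edgeR test. Of 9 tested members of this list 0 passed, against 0.0853% of all genes tested. At an unadjusted p below 0.05 edgeR had 7, of which 3 were higher and 4 lower in HJ-23. Of all genes tested 12.0% had such a p (6.77% higher and 5.25% lower). The 4 lower ones include HSPA1A and HSPA1B, near-identical copies that may share reads. The median log2 fold change of the 9 was -0.23. With the GC content and length correction BAG3 was no longer below 0.05 (unadjusted p = 0.057, edgeR), where 17.4% of all genes in that fit were. HMOX1, heme oxygenase 1, was at 34.8 and 42.2 CPM in HJ-23, and at 22.5 and 20.7 CPM in DMSO (log2 fold change 0.83, SE 0.18; edgeR adjusted p = 0.233). DNAJB1, a cochaperone of the heat shock response, was at 274 and 324 CPM in HJ-23, and at 513 and 467 CPM in DMSO (log2 fold change -0.71, SE 0.15, adjusted p = 0.233, edgeR). DESeq2 called HMOX1 higher (adjusted p = 0.0161) and DNAJB1 lower (adjusted p = 0.00952), and no other member of the list. Of the genes it adjusted, DESeq2 called 2.31% (1.19% higher and 1.11% lower).

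The heat shock protein HSPA1B was at 201 and 242 CPM in HJ-23, and at 346 and 316 CPM in DMSO, and its near-identical copy HSPA1A, whose reads it may share, had the same direction. HSPA8, the constitutive member, was at 956 and 827 CPM in HJ-23, and at 1157 and 1448 CPM in DMSO. GCLC, which starts glutathione synthesis, was at 171 and 134 CPM in HJ-23, and at 109 and 111 CPM in DMSO, and BAG3, a chaperone partner induced by protein damage, at 176 and 185 CPM in HJ-23 and 148 and 135 CPM in DMSO. Groups did not overlap for 7 of the 9 genes, 3 above and 4 below, against 46.0% of all genes tested. Of the 4 expressed metallothioneins, groups did not overlap for 1. HMOX1, GCLC and HSPA1A were named after their values were seen.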

How the data were processed

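The deposited counts are whole numbers per gene, without normalization by the authors as far as the values show, in 1 table per library. HISAT2, RSEM, bedtools, Trimmomatic and FastQC are named, without roles or versions, per the submitters' processing notes. Genome build, annotation, strand setting and read length: not given in the sources used here. Even numbers made up 69.6% to 72.3% of values from 1 to 8 and 49.7% to 50.8% of those over 50, a sign that mates were counted separately. Groups and replicate numbers came from the titles, and symbols from a gene name table (20148 of 20263 identifiers). Counts were tested with edgeR 4.0.16 (R 4.3.3), using filterByExpr, TMM scaling with factors of 0.983 to 1.03, robust dispersions, the legacy quasi-likelihood F-test (2 residual and 3.98 prior degrees of freedom) and Benjamini-Hochberg adjustment over 14062 genes. Intervals are at 95% and use the SE, the log2 fold change over the square root of F. DESeq2 1.42.0, other scalings and filters, leaving out each library, a replicate block, and a loess correction (span 0.5) for GC content and length of GENCODE 29 transcripts were alternatives. The fits were checked on simulated counts. Members and lists were chosen with earlier results of these data known. Named genes were the members, the 4 most abundant tested genes and any called gene of each other list, and the 5 genes most like MT2A, of which 1 is not reported here.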

Additional observations from a re-analysis of the deposited data

How the results depend on the processing

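The count of called members was 0 of 7 in edgeR as reported and under all 13 alternatives. The summed metallothionein level, a log2 ratio of 0.0067, ranged from -0.26 to 0.23 with 1 library left out and from -0.0081 to 0.028 under the other scalings. Adding the other metallothionein genes could not change it, since they were at 0 in every library. No sum was formed with the GC content and length correction, which took MT2A, the largest part of the sum, from -0.050 to -0.25. Over all genes, edgeR called 12 (8 higher, 4 lower); other settings gave 311 with DESeq2, 33 with the GC content and length correction, 31 with no filter, 0 with a mean of at least 10 CPM (1254 at an unadjusted p below 0.05), 294 with the replicate block, 11 with the block and that correction together, and 0 to 273 with 1 library left out (0 without either HJ-23 library, 273 without DMSO replicate 1, 157 without DMSO replicate 2; with HJ-23 replicate 1 or 2 out, 3501 or 1377 genes had an unadjusted p below 0.05). For the other zinc, copper and stress lists 0 of 44 tested genes were called in edgeR, against 0.0853% of all genes tested. DESeq2 called 2 of the 48 list genes in its fit, some of which, such as SLC30A2, got no adjusted p. It called 2.31% of all genes it adjusted. The deviations of same-numbered libraries correlated weakly and negatively (r = -0.18 across genes), and with 2 such pairs the libraries share only a number. A block with crossed numbers, chosen after seeing the data, called 966 of 14062 genes. These held 8 of the 44 tested list genes (DNAJB1, HMOX1, HSPA1A, HSPA1B, HSPA8, PER1, SLC30A6 and SLC39A14) and 0 members.

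With the GC content and length correction MT1F was -0.066, MTF1 0.056, SLC30A5 0.12 and SLC30A3 -0.14, and with the replicate block added they were -0.067, 0.063, 0.11 and -0.14. SLC30A5 was 0.0023 with total counts. SCO1 was -0.0095 with DESeq2 size factors, -0.0087 with DESeq2 and -0.00050 with at least 10 CPM. With 1 library left out the log2 fold changes ran as follows: MT1E -0.017 to 0.46, MT1F -0.28 to 0.37, MT2A -0.35 to 0.16, MTF1 -0.19 to 0.011, SLC30A1 -0.071 to 0.30, SLC30A9 -0.21 to 0.20, SLC30A5 -0.11 to 0.041, SLC30A7 -0.19 to 0.18, SLC30A3 -0.13 to 0.23, SLC39A7 -0.0071 to 0.29, SLC39A14 -0.25 to 1.196, SLC39A6 -0.19 to 0.19, SOD1 -0.085 to 0.073, SCO1 -0.043 to 0.031, TSC22D3 -0.49 to 0.79 and KLF9 -0.16 to 0.15. The cause was not tested. With 1 library in a group, that library is assumed to vary like the others, and with 2 libraries a group the interval of even MT2A, the most abundant member, ran from -0.53 to 0.43.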

Other observations

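Copper, the other ion that metallothioneins bind, was examined through 11 handling genes, all tested. None passed in edgeR (0 at an unadjusted p below 0.05, 0 with DESeq2), and the median log2 fold change was 0.0056. Over all genes the shares were 0.0853% passing in edgeR, 12.0% at an unadjusted p below 0.05 and 2.31% with DESeq2. SLC31A1, the main copper importer, was at 68.3 and 68.3 CPM in HJ-23, and at 82.7 and 80.9 CPM in DMSO (log2 fold change -0.26, SE 0.13, adjusted p = 0.476, edgeR; -0.15 with the GC content and length correction). Both HJ-23 libraries lay below both DMSO libraries, as for 21.2% of all genes tested. SOD1, the copper and zinc superoxide dismutase, was at 284 and 316 CPM in HJ-23, and at 299 and 294 CPM in DMSO. SCO1, a copper chaperone of cytochrome oxidase, averaged 40.1 ± 0.067 CPM in HJ-23 and 40.0 ± 0.98 CPM in DMSO, and COX17, which hands copper to it, 33.5 ± 5.38 CPM in HJ-23 and 37.5 ± 0.96 CPM in DMSO.

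Glucocorticoids are the other classical inducers of MT2A. Of 8 genes of the glucocorticoid receptor list 7 were tested and 0 passed in edgeR (1 at an unadjusted p below 0.05, 0 with DESeq2). The shares over all genes were again 0.0853%, 12.0% and 2.31%. The list had a median log2 fold change of 0.024. PER1, also a clock gene, was at 517 and 661 CPM in HJ-23, and at 470.0 and 374 CPM in DMSO (log2 fold change 0.48, SE 0.19, adjusted p = 0.404, edgeR). The value was 0.27 with HJ-23 replicate 2 left out, 0.30 with DMSO replicate 2 left out and 0.26 with the GC content and length correction. FKBP5, a chaperone of the receptor, was at 44.7 and 44.2 CPM in HJ-23, and at 53.7 and 60.3 CPM in DMSO (log2 fold change -0.36, SE 0.15; edgeR adjusted p = 0.431). Its value was -0.13 with the GC content and length correction. TSC22D3, which encodes GILZ, was at 83.9 and 203 CPM in HJ-23, and at 134 and 97.4 CPM in DMSO, and KLF9 averaged 74.1 ± 11.4 CPM in HJ-23 and 72.9 ± 2.93 CPM in DMSO. TSC22D3, like MT2A, had its highest and its lowest library both in HJ-23. So did KLF9 with the replicates reversed, at 82.1 and 66.0 CPM in HJ-23, and at 74.9 and 70.8 CPM in DMSO. How many of all genes tested did so was not counted.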
